A study of Caenorhabditis elegans with 12 samples.

Results

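The insulin receptor signalling genes described here are *daf-2* (Y55D5A.5), *age-1* (B0334.8), *daf-18* (T07A9.6), *pdk-1* (H42K12.1), *akt-1* (C12D8.10) and *akt-2* (F28H6.1). They are 6 of the 45836 genes listed in a table of read counts from *Caenorhabditis elegans*. They were chosen by their known place in the pathway, when earlier results of these data were known. mRNA was sequenced from 12 libraries, 3 biological replicates for each of 4 genotypes, to ask how the transcriptome of a genetic model of dietary restriction depends on a nuclear hormone receptor. The genotypes were *nhr-62(tm1818);eat-2(ad465)* (the double mutant), *eat-2(ad465)*, *nhr-62(tm1818)* and wild-type N2, all young adults that did not yet carry eggs, grown on OP50 bacteria. *eat-2* encodes a subunit of a pharyngeal acetylcholine receptor, and its mutants pump slowly and eat less. *tm1818* deletes part of *nhr-62* and its DNA-binding domain, but a shorter isoform may remain, so it need not be a null allele. Whole animals were used, and in such material fewer cells of a type and less RNA per cell cannot be told apart.

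DAF-2 is the only insulin and IGF-1 receptor of the worm. When an insulin-like peptide binds it, the lipid kinase AGE-1 makes a phosphoinositide that recruits PDK-1 and the kinases AKT-1 and AKT-2, and these keep the FOXO transcription factor DAF-16 out of the nucleus. The lipid phosphatase DAF-18 removes that phosphoinositide and so opposes AGE-1. Reduced activity of *daf-2* or *age-1* lengthens life and, in larvae, leads to dauer arrest. These are effects of protein activity, and only transcript levels were measured here.

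Libraries held 18260311 to 44753083 counts. A normalized count below is a read count scaled by TMM (a correction for library size and composition) to a library of average size. Of 24428 genes with a count in any library, 15344 passed a filter on low counts and were tested, all 6 pathway genes among them. The *nhr-62* transcript had 89, 90 and 122 normalized counts in the double mutant, 137, 166 and 131 in *eat-2*, 126, 140 and 128 in *nhr-62* and 186, 152 and 122 in N2, which is a weak check of a partial deletion. The *eat-2* transcript was rare, with 5, 0 and 5 normalized counts in the double mutant, 7, 1 and 4 in *eat-2*, 8, 16 and 8 in *nhr-62* and 14, 21 and 7 in N2. Squared differences between pairs of replicates averaged 9.5 to 56.5 times what sampling of reads would give per gene, the most between *eat-2* replicates 1 and 2.

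The lipid phosphatase was by far the most abundant of the 6 transcripts, and *pdk-1* the least. Divided by exon length, *daf-18* averaged 6245 normalized counts per kb over all libraries, *akt-1* 2596, *age-1* 898, *daf-2* 673, *akt-2* 178 and *pdk-1* 163. Among the 15146 tested genes with an exon length, *daf-18* stood at percentile 96.9 of this level per kb, *akt-1* at 91.4 and *age-1* at 72.2. *daf-2* stood at percentile 66.5, *akt-2* at 46.3 and *pdk-1* at 45, so *akt-2* and *pdk-1* were near the middle of the tested genes. The level per kb of *daf-18* was 6.96 times that of *age-1*, whose lipid product it removes. That of *akt-1* was 14.5 times that of *akt-2*, the other AKT kinase. *daf-2* stood at 0.75 times the level of *age-1*.

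In every genotype the mean level per kb fell in the order *daf-18*, *akt-1*, *age-1* and *daf-2*, followed by the pair *pdk-1* and *akt-2*. In the double mutant *pdk-1* averaged 183 and *akt-2* 172 normalized counts per kb, in *eat-2* they averaged 139 and 247, in *nhr-62* 170 and 151, and in N2 162 and 144. The libraries of this pair overlapped in the double mutant, *nhr-62* and N2, whereas in *eat-2* every library had more *akt-2* than any had *pdk-1*. *daf-2* and *age-1* overlapped in *eat-2*, where they averaged 649 and 780 normalized counts per kb, and in no other genotype.

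**Figure D1:**
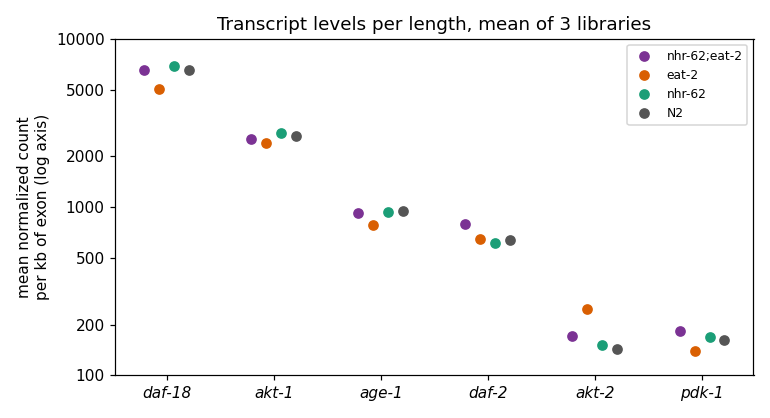
Mean normalized count per kb of exon (log axis) of the 6 pathway genes in each genotype. *daf-18* lies highest in every genotype, at 5057 to 6913 per kb, and *pdk-1* and *akt-2* lie lowest, at 139 to 247 per kb.

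In *eat-2* animals the 2 genes that act on the lipid messenger were lower than in N2 and *akt-2* was higher, while the receptor gene *daf-2* did not pass the test. These were *age-1* at 0.817 times, *daf-18* at 0.777 times and *akt-2* at 1.71 times the N2 level. The kinase genes *pdk-1* and *akt-1* did not pass either. Thus 3 of the 6 genes changed at an adjusted p under 0.05 (edgeR quasi-likelihood test, Benjamini-Hochberg), 1 higher and 2 lower, where 52.4% of all tested genes changed, 29.9% higher and 22.5% lower. Only *akt-2* was also past a 1.5-fold change, 1 of 6 against 27.5% of all genes, so the pathway genes changed about as often as genes in general. The libraries of the genotypes did not overlap for the same 3 genes, against 59.3% of all genes. The median log2 fold change was -0.18 over the 6 genes and 0.06 over all tested genes.

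*daf-2*, the receptor, had 6863, 4013 and 5275 normalized counts in the *eat-2* replicates 1, 2 and 3, against 5225, 5710 and 5033 in N2. The *eat-2* libraries held both the highest and the lowest of these 6 values and so enclosed all of N2. The means were 5383 ± 1428 in *eat-2* and 5322 ± 349 in N2 (SD, n = 3 each), with a log2 fold change of 0.02 (standard error 0.17, 95% interval -0.35 to 0.38, adjusted p = 0.943, edgeR). The interval spans 0.787 to 1.3 times the N2 level, and without *eat-2* replicate 1 the log2 fold change was -0.20. Of the 6 genes *daf-2* and *akt-2* varied most among the *eat-2* libraries, with a coefficient of variation of 26.5% for *daf-2* and 38.5% for *akt-2*.

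*age-1*, the catalytic subunit of phosphoinositide 3-kinase, had 3318, 2654 and 3221 normalized counts in *eat-2*, against 3507, 3834 and 3900 in N2. Every *eat-2* library lay below every N2 library. *age-1* averaged 3064 ± 358 in *eat-2* and 3747 ± 211 in N2 (SD, n = 3 each), a log2 fold change of -0.29 (standard error 0.10, 95% interval -0.50 to -0.08, adjusted p = 0.0252, edgeR).

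*daf-18* fell in *eat-2* as well. It had 16271, 15985 and 18306 normalized counts in *eat-2*, against 19507, 24151 and 21448 in N2, again without overlap. The means were 16854 ± 1265 in *eat-2* and 21702 ± 2332 in N2 (SD, n = 3 each), with a log2 fold change of -0.36 (standard error 0.09, 95% interval -0.56 to -0.17, adjusted p = 0.00617, edgeR). The ratio of *daf-18* to *age-1* counts was 4.9, 6.02 and 5.68 in *eat-2* against 5.56, 6.3 and 5.5 in N2, and these overlapped. The difference of the log2 ratio was -0.07 (two-sided exact permutation test, p = 0.6, adjusted p = 0.667 over 10 ratio tests).

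*pdk-1*, the kinase that phosphorylates AKT, had 390, 274 and 344 normalized counts in *eat-2*, against 334, 478 and 364 in N2. The libraries overlapped, and the log2 fold change was -0.23 (standard error 0.15, 95% interval -0.55 to 0.10, adjusted p = 0.216, edgeR). *akt-1* had 5971, 5163 and 5370 normalized counts in *eat-2*, against 5566, 6402 and 6168 in N2. These overlapped too, with a log2 fold change of -0.14 (standard error 0.09, 95% interval -0.32 to 0.05, adjusted p = 0.192, edgeR).

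*akt-2* was the one gene of the pathway past the 1.5-fold threshold. It had 848, 469 and 445 normalized counts in *eat-2*, against 338, 380 and 308 in N2. Every *eat-2* library was above every N2 library, but replicate 1 was far above the other two. *akt-2* averaged 587 ± 226 in *eat-2* and 342 ± 36.5 in N2 (SD, n = 3 each), a log2 fold change of 0.78 (standard error 0.24, 95% interval 0.26 to 1.3, adjusted p = 0.0173, edgeR). The ratio of *akt-2* to *akt-1* counts was 0.142, 0.0908 and 0.0829 in *eat-2*, against 0.0607, 0.0594 and 0.0499 in N2, again without overlap. The log2 ratio averaged -3.29 ± 0.42 in *eat-2* and -4.15 ± 0.15 in N2 (SD, n = 3 each), a difference of 0.86 with p = 0.1 in the two-sided exact permutation test, the smallest p that 3 against 3 allows (adjusted p = 0.5). *akt-2* and *pdk-1* lie on the X chromosome, where 28.6% of 2091 tested genes were higher and 14.3% lower in *eat-2* than in N2.

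**Figure D2:**
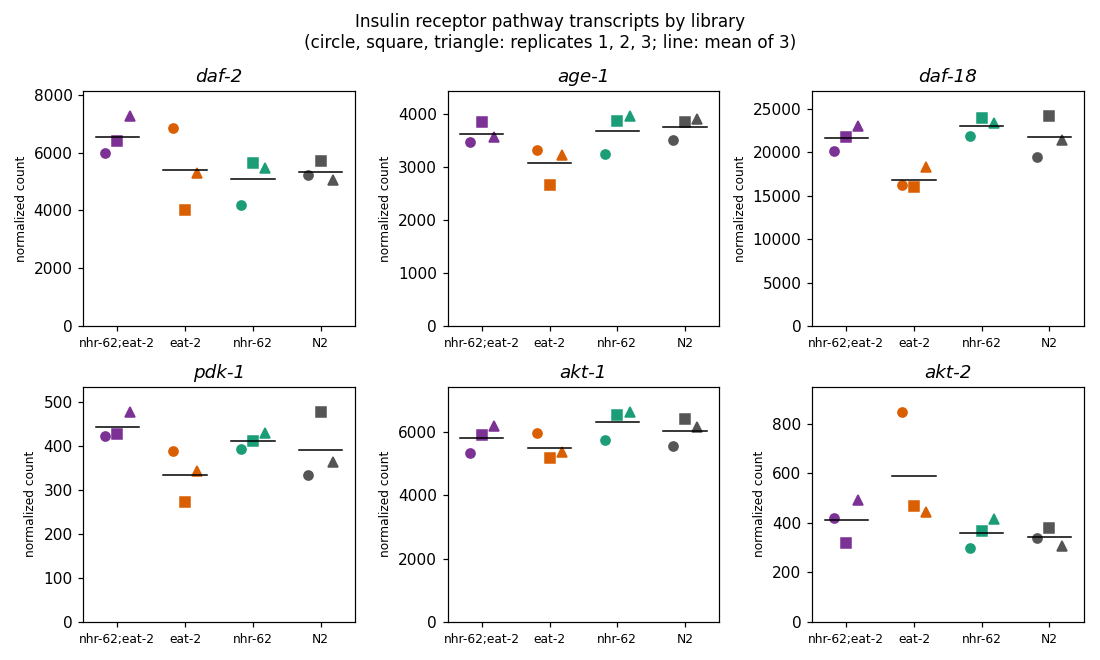
Normalized counts of the 6 genes in each library, with a line at the mean of each genotype (n = 3). *age-1* and *daf-18* are lowest in *eat-2*, and *akt-2* is highest in *eat-2* replicate 1 at 848.

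Of these calls only that of *daf-18* held whichever of the 6 libraries was left out. That of *age-1* was lost without *eat-2* replicate 2 (log2 fold change -0.20, adjusted p = 0.0872), N2 replicate 2 (-0.28, adjusted p = 0.0631) or N2 replicate 3 (-0.27, adjusted p = 0.0768), and that of *akt-2* without *eat-2* replicate 1 (0.42, adjusted p = 0.0763) or N2 replicate 3 (0.70, adjusted p = 0.0635). With total counts in place of TMM the median of all genes was 0.28, *age-1* stood at -0.07 (adjusted p = 0.593) and *daf-18* at -0.14 (adjusted p = 0.243), neither passing.

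Markers of several tissues differed between the same animals, where 29.9% of all genes were higher in *eat-2* than in N2 and 22.5% lower. All 16 oocyte and eggshell markers were lower in *eat-2* than in N2 (median log2 fold change -0.43), with a summed level of 9751 to 11286 CPM in *eat-2* and 13309 to 15355 CPM in N2. Of 17 sperm markers 14 were higher (median 1.15), summing to 366 to 448 CPM in *eat-2* and 137 to 280 CPM in N2, and of 15 neuronal markers 11 were higher (0.54), summing to 718 to 831 CPM in *eat-2* and 546 to 569 CPM in N2. All 6 pharyngeal muscle markers were higher too, and no marker of these 4 lists was at 0 in every library of a genotype. Of other lists, 0 of 8 body muscle markers changed and 3 of 9 intestinal markers were higher. Of 8 epidermal markers 2 were higher and 1 lower, and of 5 tested early embryo markers 2 were lower. With the level of the sperm markers as a covariate none of the 6 pathway genes passed, with *age-1* at -0.14 (adjusted p = 0.662), *daf-18* at -0.05 (adjusted p = 0.841) and *akt-2* at 0.67 (adjusted p = 0.405), and only 3.25% of all genes did. The summed sperm marker levels of *eat-2* and N2 did not overlap, so this fit cannot separate sperm marker level from genotype. The part of these tissues in the changes of *age-1*, *daf-18* and *akt-2* was not tested.

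Loss of *nhr-62* in the *eat-2* background went with a higher *daf-18*. Of the 6 genes it alone changed between the double mutant and *eat-2* (edgeR, adjusted p under 0.05), 1 of 6 where 10.6% of all genes changed. None was past the 1.5-fold threshold as well, by edgeR, where 5.43% of all genes were, or by DESeq2, where 7.4% were. With edgeR 4 of the 6 had an unadjusted p under 0.05. The largest of these 4, 0.0499 for *akt-2*, ranked 5083 among all 15344 tested genes, so such values were common among all genes. The libraries did not overlap for *age-1*, *daf-18* and *pdk-1*, all higher in the double mutant, 3 of 6 where 37.9% of all genes did not overlap in either direction. The median log2 fold change was 0.26 over the 6 genes and -0.03 over all genes. This comparison shares the *eat-2* libraries with that of *eat-2* and N2, so the values of the 2 comparisons are not independent.

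*daf-18* had 20192, 21740 and 23060 normalized counts in the double mutant, against 16271, 15985 and 18306 in *eat-2*. It averaged 21664 ± 1436 in the double mutant and 16854 ± 1265 in *eat-2* (SD, n = 3 each), 1.29 times as much (log2 fold change 0.36, standard error 0.09, 95% interval 0.16 to 0.56, adjusted p = 0.0328, edgeR). The adjusted p was above 0.05 without double mutant replicate 2 (0.111) or 3 (0.0777) and without *eat-2* replicate 1 (0.0639) or 2 (0.0851), while the log2 fold change stayed within 0.32 to 0.43. The call was also lost under scaling by total counts (0.25, adjusted p = 0.086) and with the level of the sperm markers as a covariate (0.16, adjusted p = 0.573). Oocyte and eggshell markers moved with it, 14 of 16 higher in the double mutant (median 0.38). Of all genes 4.48% were higher there and 10.6% changed in either direction. The summed level of these 16 markers was 13739 to 14378 CPM in the double mutant and 9751 to 11286 CPM in *eat-2*. All 17 sperm markers had lower values in the double mutant, 5 of them passing the test (median -0.78), with a summed level of 213 to 302 CPM in the double mutant and 366 to 448 CPM in *eat-2*, and 2 of 6 pharyngeal muscle markers were lower. The summed sperm marker levels of the double mutant and *eat-2* did not overlap, so the fit with them cannot separate their level from genotype. The part of these tissues in the result was not tested.

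*age-1* had 3456, 3846 and 3554 normalized counts in the double mutant, against 3318, 2654 and 3221 in *eat-2*, a log2 fold change of 0.24 (95% interval 0.03 to 0.45, adjusted p = 0.11, edgeR). *pdk-1* had 424, 428 and 478 normalized counts in the double mutant, against 390, 274 and 344 in *eat-2*, a log2 fold change of 0.40 (95% interval 0.08 to 0.73, adjusted p = 0.0893, edgeR; adjusted p = 0.0482 by DESeq2). All double mutant libraries were above all *eat-2* libraries for both genes, but with edgeR neither passed the correction over all genes.

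*daf-2* had 5987, 6383 and 7255 normalized counts in the double mutant, where it averaged 6542 ± 648, against 5383 ± 1428 in *eat-2* (SD, n = 3 each). The log2 fold change was 0.28 (95% interval -0.08 to 0.64, adjusted p = 0.253, edgeR), and *eat-2* replicate 1 lay within the range of the double mutant. It was 0.11 without *eat-2* replicate 2 and 0.50 without *eat-2* replicate 1. *akt-2* had 421, 316 and 493 normalized counts in the double mutant, which overlapped the 848, 469 and 445 of *eat-2* (log2 fold change -0.52, 95% interval -1.03 to 0.00, adjusted p = 0.151, edgeR), and stood at -0.16 without *eat-2* replicate 1. *akt-1* had 5332, 5894 and 6190 in the double mutant, against 5971, 5163 and 5370 in *eat-2*, and differed by 0.08 (95% interval -0.11 to 0.26, adjusted p = 0.549).

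The ratio of *akt-2* to *akt-1* counts was 0.079, 0.0537 and 0.0796 in the double mutant, below each of the 0.142, 0.0908 and 0.0829 in *eat-2*, though 0.0796 and 0.0829 lie close. The difference of the log2 ratio was -0.55 (two-sided exact permutation test, p = 0.1, the smallest possible, adjusted p = 0.5), and -0.32 without *eat-2* replicate 1. Against N2 the difference was 0.30 (p = 0.3, two-sided exact permutation test), with overlap. The ratio of *daf-18* to *age-1* was 5.84, 5.65 and 6.49 in the double mutant, which overlapped *eat-2* (difference of the log2 ratio 0.12, p = 0.5, two-sided exact permutation test).

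**Figure D3:**
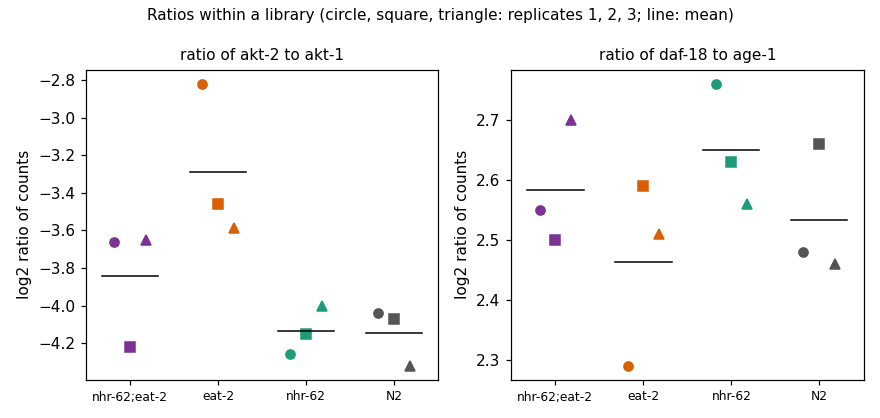
Log2 ratio of the counts of *akt-2* to *akt-1* and of *daf-18* to *age-1* in each library by genotype, with lines at the means (n = 3). Before the log, the *akt-2* to *akt-1* ratio is 0.0829 to 0.142 in *eat-2* and 0.0499 to 0.0796 in the other libraries, while the *daf-18* to *age-1* ratio overlaps between all genotypes.

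No pathway gene passed the test between the double mutant and N2. With edgeR 0 of 6 changed, where 11.3% of all genes did, and with DESeq2 also 0, where 14.8% did. None had an unadjusted p under 0.05 (edgeR), and the lowest, 0.0971 for *daf-2*, ranked 5850 among the 15344 tested genes. *daf-18* averaged 21664 ± 1436 in the double mutant and 21702 ± 2332 in N2 (SD, n = 3 each), a log2 fold change of 0.00 (95% interval -0.20 to 0.20, adjusted p = 0.988, edgeR). *daf-2* was the one gene of 6 without overlap, where 35% of all genes had none, with 5987, 6383 and 7255 normalized counts in the double mutant, all above the 5225, 5710 and 5033 of N2. Its log2 fold change was 0.30 (95% interval -0.06 to 0.66, adjusted p = 0.255, edgeR). The other 4 genes lay between -0.06 and 0.26, the largest being *akt-2* (95% interval -0.26 to 0.78, adjusted p = 0.483).

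Between the double mutant and *nhr-62* animals 0 of 6 genes changed with edgeR, where 19.4% of all genes did. With DESeq2 0 changed as well, where 24.3% did, and none of the 6 had an unadjusted p under 0.05 (edgeR). The lowest p was that of *daf-2*, the 1 gene of 6 without overlap (45.4% of all genes), whose double mutant libraries were all above the 4186, 5651 and 5462 normalized counts of *nhr-62*. The log2 fold change was 0.36 (standard error 0.17, unadjusted p = 0.0502, adjusted p = 0.139, edgeR). Its unadjusted p ranked 5556 among the 15344 tested genes. The other 5 genes lay between -0.12 and 0.19.

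No pathway gene separated *nhr-62* animals from N2. The log2 fold changes were between -0.06 and 0.09, each with an adjusted p of 1, and the libraries overlapped for all 6 genes, where 8.37% of all genes had no overlap. With edgeR 0 of 6 changed, where 0.111% of all genes did, and with DESeq2 also 0, where 0.176% did. None had an unadjusted p under 0.05 (edgeR), the lowest being 0.36 for *daf-18*, which ranked 4882 among the 15344 tested genes. *daf-18* had 21884, 23895 and 23344 normalized counts in *nhr-62*, *age-1* had 3231, 3853 and 3950, *pdk-1* had 393, 412 and 431, *akt-1* had 5756, 6528 and 6634, and *akt-2* had 299, 367 and 415.

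A test of whether the effect of *eat-2* differed with *nhr-62* (the interaction of both mutations) was passed by 0 of 6 genes with edgeR. Of all genes 0.261% passed. With DESeq2 0 of the 6 passed as well, where 1.98% of all genes did. None of the 6 had an unadjusted p under 0.05 (edgeR), the lowest being 0.0525 for *daf-18*, which ranked 2273 among the 15344 tested genes. The interaction was -0.59 on the log2 scale for *akt-2* (standard error 0.34, adjusted p = 0.436) and 0.34 for *daf-2* (adjusted p = 0.509). For *daf-18* it was 0.28 (adjusted p = 0.354) and for *age-1* 0.27 (adjusted p = 0.394). For *pdk-1* it was 0.33 (adjusted p = 0.482) and for *akt-1* 0.02 (adjusted p = 0.956). The effect of *eat-2* on these genes was therefore not shown to differ between animals with and without intact *nhr-62*.

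**Figure D4:**
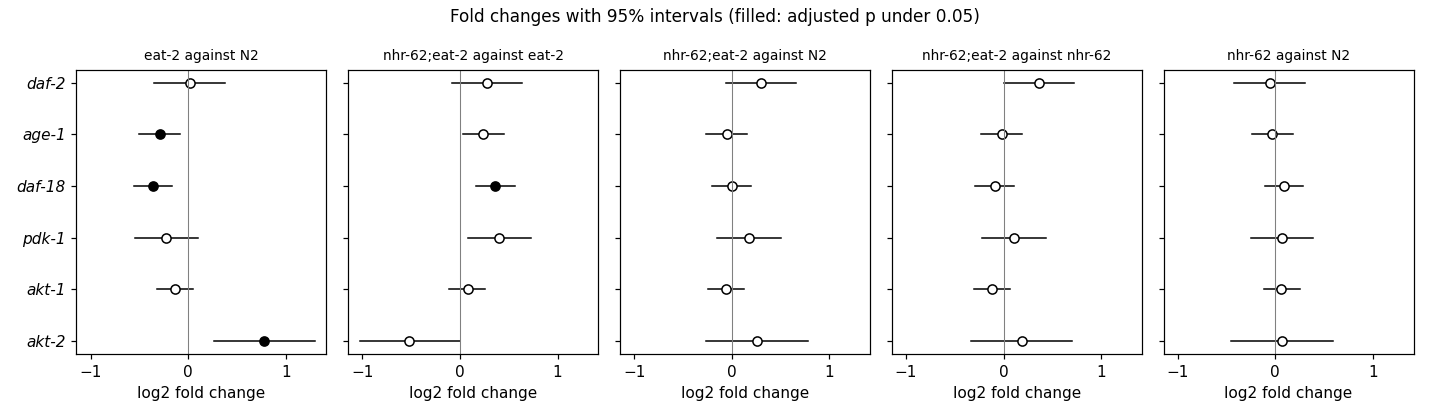
Log2 fold change with 95% interval of the 6 genes in each comparison (edgeR, 3 libraries per genotype). Filled points passed an adjusted p of 0.05, which are *age-1*, *daf-18* and *akt-2* in *eat-2* against N2 and *daf-18* in the double mutant against *eat-2*.

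Across the 12 libraries *age-1*, *daf-18*, *pdk-1* and *akt-1* varied together. *akt-2* tended to vary opposite to *daf-18* and varied little with *akt-1* and *pdk-1*. Pearson's r of log2 CPM was 0.80 between *age-1* and *daf-18*, 0.80 between *age-1* and *akt-1*, 0.76 between *daf-18* and *pdk-1* and 0.68 between *pdk-1* and *akt-1*. For *akt-2* r was -0.58 with *daf-18*, -0.35 with *age-1*, -0.08 with *akt-1* and -0.03 with *pdk-1*. *daf-2* had r = 0.69 with *pdk-1*, 0.51 with *age-1*, 0.44 with *akt-2*, 0.4 with *akt-1* and 0.23 with *daf-18*. These points share genotypes and libraries, so the values are descriptions over 12 libraries.

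The genes around the core of the pathway were grouped as ligands, receptor adaptors with the PI3K subunit, kinases and phosphatases beside AKT, FOXO with its regulators, and genes reported to be raised or lowered when *daf-2* is reduced. Of 66 genes listed 57 were tested. In *eat-2* against N2 12 of them rose and 17 fell (edgeR, adjusted p under 0.05), 21.1% higher and 29.8% lower, where 29.9% and 22.5% of all genes did. With total counts as the scaling 17 were higher and 5 lower. That scaling moved all genes upward, with a median log2 fold change of 0.28 in place of 0.06. Of all genes 45.6% changed in either direction with it, against 52.4% with TMM.

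Of 6 insulin-like peptide genes chosen as ligands, 3 were higher in *eat-2* than in N2 (median 0.56), where 29.9% of all genes were. The 6 are not the whole family of such genes. The 3 became 0 with the sperm marker covariate and 2 with replicates 2 and 3 only. *ins-7*, which encodes an agonist of DAF-2, had 169, 240 and 197 normalized counts in *eat-2*, against 79, 74 and 58 in N2 (log2 fold change 1.52, adjusted p = 0.000662, edgeR). *ins-1* (1.21, adjusted p = 0.00234) and *ins-18* (0.76, adjusted p = 0.0083), both known as antagonists, were higher as well. The double mutant had 2 of 6 above N2, where 7.19% of all genes were. These were *ins-7* at 0.91 (adjusted p = 0.0327) and the agonist gene *daf-28* at 0.86 (adjusted p = 0.0437), and each lost its call without any of 5 of the 6 libraries. Between the double mutant and *eat-2* the median of the ligand genes was -0.21.

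Among 3 adaptor genes, *ist-1*, the insulin receptor substrate homolog, had 589, 242 and 252 normalized counts in *eat-2*, against 210, 225 and 184 in N2 (log2 fold change 0.81, adjusted p = 0.0306, edgeR). Like *akt-2* it was highest in *eat-2* replicate 1, without which it stood at 0.26 (adjusted p = 0.156), and its call was also lost without N2 replicate 1 (0.82, adjusted p = 0.0582), 2 (0.87, adjusted p = 0.0514) or 3 (0.73, adjusted p = 0.0966). *aap-1*, the regulatory partner of AGE-1, was lower in *eat-2*, as *age-1* was (-0.24, adjusted p = 0.00984), but stood at -0.02 (adjusted p = 0.878) under scaling by total counts and at -0.08 (adjusted p = 0.68) with the sperm marker covariate. The Shc adaptor gene *shc-1* was higher in the double mutant than in N2 (0.38, adjusted p = 0.047), a call lost without any of 5 of the 6 libraries.

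The kinase gene *sgk-1*, a relative of AKT that acts beside it, varied little between replicates. It had 1351, 1342 and 1287 normalized counts in *eat-2*, against 902, 927 and 866 in N2 (log2 fold change 0.56, standard error 0.07, adjusted p = 0.00023, edgeR), and was higher in the double mutant than in N2 too (0.38, adjusted p = 0.00691). Both calls held whichever library was left out. Of the 9 genes of its list 4 were tested, and *eak-7*, a gene that acts in parallel to AKT-1, fell slightly in *eat-2* (-0.16, adjusted p = 0.0442), but stood at 0.06 under scaling by total counts and lost its call without *eat-2* replicate 1 (-0.14, adjusted p = 0.116) or 3 (-0.18, adjusted p = 0.0634) or N2 replicate 2 (-0.12, adjusted p = 0.164) or 3 (-0.16, adjusted p = 0.106).

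*daf-16*, the FOXO gene at the end of the pathway, had 7044, 5502 and 6163 normalized counts in *eat-2*, against 6362, 5697 and 5999 in N2. These overlapped, with a log2 fold change of 0.05 (adjusted p = 0.619, edgeR), and against N2 the double mutant stood at 0.15 (adjusted p = 0.26). Of the 17 genes of FOXO and its regulators 9 fell and 2 rose in *eat-2* (median -0.22), where 22.5% of all genes fell and 29.9% rose. The 9 became 0 under scaling by total counts, where the median of all genes was 0.28. They became 2 with the sperm marker covariate, where 3.25% of all genes changed. Those that fell include *tcer-1*, a cofactor of DAF-16 (-0.35, adjusted p = 0.000933), and the genes of its negative regulators *rle-1*, a ubiquitin ligase (-0.39, adjusted p = 0.00174), and *hcf-1*, a nuclear repressor (-0.32, adjusted p = 0.00348). Under scaling by total counts these 3 stood at -0.13, -0.17 and -0.10 and did not pass. *pqm-1*, whose zinc finger product opposes DAF-16, rose to 976, 1829 and 1724 normalized counts in *eat-2*, against 710, 789 and 678 in N2 (1.06, adjusted p = 0.00155), and was higher in the double mutant than in N2 as well (1.29, adjusted p = 0.00197). Between the double mutant and *eat-2* 2 of the 17 changed, where 10.6% of all genes did. They were *tcer-1* (0.25, adjusted p = 0.0292) and *skn-1*, an Nrf factor that the pathway inhibits (0.24, adjusted p = 0.0493). The call of *tcer-1* was lost in 4 of the 6 fits without 1 library, and that of *skn-1* in all 6.

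Of 16 tested genes that are raised when *daf-2* is reduced, 4 rose and 3 fell in *eat-2* (median 0.38), shares near the 29.9% and 22.5% of all genes. *dod-6* (1.18, adjusted p = 0.000427), the ferritin gene *ftn-1* (2.19, adjusted p = 0.00185) and the linker histone gene *hil-1* (0.87, adjusted p = 0.0116) rose, and the glutathione S-transferase gene *gst-4* fell (-1.24, adjusted p = 0.00298). *hil-1*, like *akt-2* and *ist-1*, was highest in *eat-2* replicate 1, with 426, 215 and 197 normalized counts in *eat-2*, against 181, 133 and 142 in N2, and without that library it stood at 0.44. Its call was lost with only these genotypes in the fit (adjusted p = 0.0529). *sod-3*, a manganese superoxide dismutase gene and a common reporter of DAF-16 activity, was chosen after its values were seen. It had 4, 18 and 26 normalized counts in *eat-2*, against 49, 62 and 58 in N2 (-1.83, adjusted p = 0.0134), without overlap. The call held whichever library was left out and was lost with the sperm marker covariate (-1.29, adjusted p = 0.402). In the double mutant *sod-3* had 5, 13 and 31 normalized counts, and against N2 it did not pass (-1.72, adjusted p = 0.0542, edgeR). Between the double mutant and *eat-2* only *sip-1*, a small heat shock protein gene, changed among the 16 (0.33, adjusted p = 0.028), beside 10.6% of all genes. Its call was lost in 4 of the 6 fits without 1 library.

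Of 11 tested genes that are lowered when *daf-2* is reduced, 3 fell and 1 rose in *eat-2* (median -0.23), beside 22.5% and 29.9% of all genes. The yolk genes *vit-5* (-2.81, adjusted p = 1.77e-06) and *vit-2* (-0.94, adjusted p = 0.000164) and *dod-23* (-1.61, adjusted p = 0.000178) fell, and *dod-19* rose (1.10, adjusted p = 0.00319). Reads of *vit-5* can be shared with its near-identical copies, so its count is uncertain. Between the double mutant and *eat-2* these 3 were higher, *vit-5* by 1.11 (adjusted p = 0.00353), *vit-2* by 0.70 (adjusted p = 0.00764) and *dod-23* by 0.73 (adjusted p = 0.0409). In all, of the 57 genes the double mutant had 6 higher and 0 lower than *eat-2* with edgeR, 10.5% higher where 4.48% of all genes were. With DESeq2 12 were higher and 0 lower. Of all genes 17.8% changed in either direction with DESeq2, against 10.6% with edgeR. The 6 became 2 to 4 when a library was left out, with 2 without double mutant replicate 2 or 3 or *eat-2* replicate 2 and 3 without double mutant replicate 1. Only *vit-5* and *vit-2* of those 6 held whichever library was left out.

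Against N2 the double mutant had 8 of the 57 genes higher and 2 lower (edgeR), 14% and 3.51% where 7.19% and 4.15% of all genes were. Besides the genes named above, *dod-6* was higher (0.88, adjusted p = 0.00746), as were *dod-19* (1.09, adjusted p = 0.0135) and *dod-20* (1.71, adjusted p = 0.0354), and *vit-5* (-1.70, adjusted p = 7.55e-05) and *dod-23* (-0.89, adjusted p = 0.013) were lower. The 8 became 3 without double mutant replicate 1 or N2 replicate 3, 4 without N2 replicate 2 and 5 without double mutant replicate 2 or 3. The calls of *dod-6*, *vit-5* and *dod-23* held whichever library was left out, that of *dod-19* was lost without double mutant replicate 1 (0.89, adjusted p = 0.0606) or N2 replicate 3 (0.89, adjusted p = 0.0604), and that of *dod-20* without any of 5 of the 6 libraries.

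**Figure D5:**
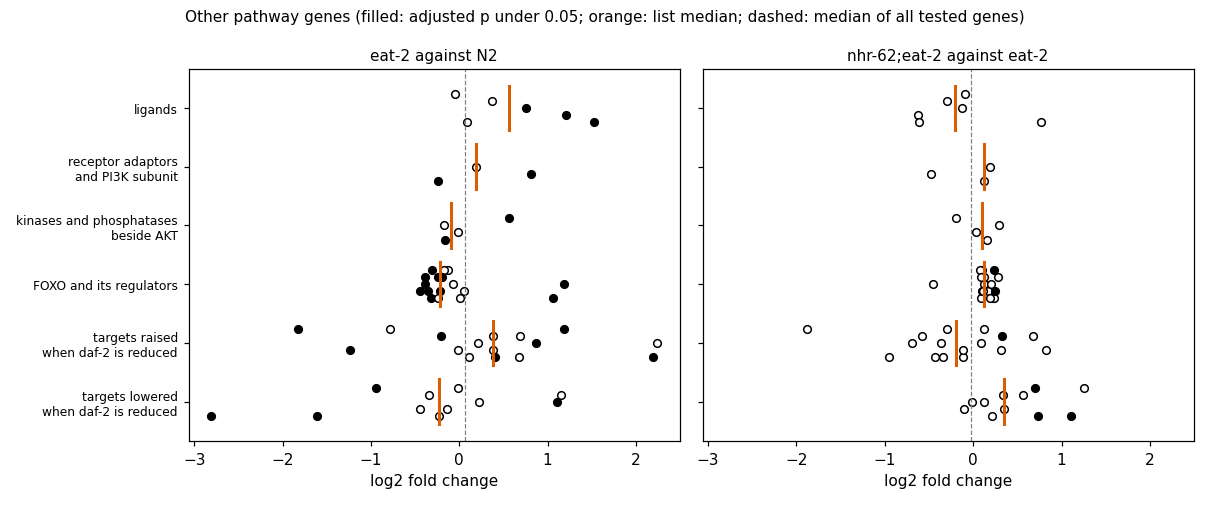
Log2 fold change of each tested gene of the 6 lists around the pathway in *eat-2* against N2 and in the double mutant against *eat-2*, with orange bars at list medians and filled points for an adjusted p under 0.05. The list medians in *eat-2* against N2 run from -0.23 for genes lowered when *daf-2* is reduced to 0.56 for ligands, beside 0.06 for all tested genes.

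Some counts can include reads of a neighbour, because the strand setting of the counting was not found in the labels or methods. By a later annotation the exons of *age-1* overlap those of a gene on the opposite strand by 192 bases, those of *pdk-1* by 15 and those of *akt-1* by 8, while *daf-2*, *daf-18* and *akt-2* overlap no other gene. The named genes *aap-1*, *shc-1*, *daf-16*, *skn-1*, *rle-1*, *gst-4*, *sod-3*, *sip-1* and *vit-2* overlap other genes too.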

How the data were processed

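The deposited values are counts of reads per gene. Per the labels and the study's methods, the authors clipped adapters, aligned the reads to a WormBase genome with TopHat 1.3 and counted them per gene with HTSeq. No source used here gives the strand setting of HTSeq. All values are whole numbers, and 1 line that names no gene was left out.

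The 6 genes were matched by sequence name. Symbols and exon lengths came from a later annotation (98.5% of genes with a count matched), so no coordinates are printed. edgeR 4.0.16 (R 4.3.3) was used with filterByExpr, TMM scaling and a single quasi-likelihood model of the 12 libraries in which each genotype had its own mean. Adjusted p-values are Benjamini-Hochberg values over the 15344 genes tested. A gene changed at an adjusted p under 0.05. To pass all thresholds, which follow the study's methods, it also had to differ by more than 1.5-fold and to average over 10 normalized counts. Standard errors were the size of the log2 fold change over the square root of F. Ratios within a library were compared by two-sided exact permutation tests. The fit was tested on simulated data.

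The rule for genes to name took the 6 genes, *daf-16*, *nhr-62* and *eat-2* (as a check of the genotypes), at most 4 changed genes with the smallest p per list and comparison, and the 3 genes most alike to each of the 6. The genes and lists were chosen with earlier results of these data known. Alternatives were DESeq2's size factors, total counts, the Wald test of DESeq2 1.42.0, no count filter, a fit of only the genotypes compared, a replicate block, a sperm marker covariate, replicates 2 and 3 only, and leaving out each library in turn. The number of libraries, 3 per genotype, limits the precision, and for *pdk-1* and *akt-2*, whose counts are low, counting error adds to it.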

Additional observations from a re-analysis of the deposited data

How the results depend on the processing

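In *eat-2* against N2 the number of the 6 genes that changed was 3, and became 1 with total counts and 0 with the sperm marker covariate, the number past all thresholds, 1, became 0 with that covariate and with replicates 2 and 3 only, and leaving out 1 library gave 1 to 3 and 0 to 1. With replicates 2 and 3 only, *akt-2* stood at 0.42 (adjusted p = 0.106) and did not pass, while *pdk-1* (-0.44, adjusted p = 0.0427) and *akt-1* (-0.25, adjusted p = 0.0119) did. In the double mutant against *eat-2* the 1 changed gene became 0 with total counts and with the covariate, and 2 with DESeq2's Wald test (adding *pdk-1*, 0.43, adjusted p = 0.0482) and with replicates 2 and 3 only (adding *daf-2*, 0.56, adjusted p = 0.0369), and 0 to 1 without 1 library. Total counts moved the median of all genes to 0.28 in *eat-2* against N2 and to -0.14 in the double mutant against *eat-2*, and with the covariate 498 and 18 genes changed, against 8038 and 1624 without it. With DESeq2's Wald test 17.8% of all genes changed in the double mutant against *eat-2*, against 10.6% with edgeR. The cause of these moves was not tested.

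Directions turned only for fold changes that did not pass, apart from *eak-7* (0.06 with total counts). In *eat-2* against N2 these were *daf-2* (-0.02 with DESeq2's size factors, -0.02 with its Wald test, -0.20 with replicates 2 and 3, -0.20 to 0.19 without 1 library), *akt-1* (0.09 with total counts, 0.06 with the covariate) and *pdk-1* (0.17 with the covariate). In *nhr-62* against N2 they were *daf-2* (0.06 with replicates 2 and 3, -0.12 to 0.07 without 1 library), *age-1* (0.0037 with no filter, 0.02 with replicates 2 and 3, -0.06 to 0.07 without 1 library), *pdk-1* (-0.02 with the covariate, -0.01 to 0.24 without 1 library) and *akt-2* (-0.02 to 0.20 without 1 library). In the double mutant against N2 they were *age-1* (0.06 with total counts), *daf-18* (0.11 with total counts, 0.01 with no filter, 0.00097 with only these genotypes, 0.11 with the covariate, -0.06 to 0.08 without 1 library) and *akt-1* (0.06 with total counts, 0.01 with the covariate, -0.10 to 0.0031 without 1 library). Against *eat-2* the double mutant had *akt-1* at -0.03 with total counts and -0.05 with the covariate, and against *nhr-62* it had *age-1* at 0.07 with either (-0.11 to 0.02 without 1 library) and *daf-18* at 0.01 and 0.10. The interaction of *akt-1* was -0.11 with total counts, -0.01 with no filter, -0.06 with the covariate and -0.05 to 0.08 without 1 library. For the log2 ratio of *daf-18* to *age-1*, leaving out 1 library gave -0.13 to 0.02 in *eat-2* against N2 and -0.01 to 0.11 in the double mutant against N2, and replicates 2 and 3 gave 0.00052 in the double mutant against *nhr-62*. For that of *akt-2* to *akt-1* in *nhr-62* against N2 it gave -0.08 to 0.07.

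Of the 57 genes around the pathway, the 12 higher and 17 lower in *eat-2* against N2 became 2 and 4 with the covariate, and the lower ones 5 with total counts. Of all genes 52.4% changed in that comparison in the main fit, 3.25% with the covariate and 45.6% with total counts. The 6 higher in the double mutant against *eat-2* became 2 with total counts or only these genotypes, 12 with DESeq2's Wald test, 0 with the covariate and 2 to 4 without 1 library, and the 0 lower became 1 with total counts or replicates 2 and 3 and 0 to 1 without 1 library. Of all genes 10.6% changed there in the main fit and 17.8% with DESeq2's Wald test. With total counts 14.3% did, with only these genotypes 9.91% and with the covariate 0.117%. The 8 higher and 2 lower in the double mutant against N2 became 4 higher with the covariate, 3 to 7 higher without 1 library, and 5 lower with DESeq2's Wald test and 4 with no filter. Of all genes 11.3% changed there in the main fit, 8.84% with the covariate, 14.8% with DESeq2's Wald test and 6.67% with no filter. Deviations of the 18 pairs of libraries with the same replicate number had r of -0.22 to 0.30, over 0.1 in 7. Pairs with different numbers had r of -0.40 to 0.33. Double mutant replicate 1 had r of 0.19, 0.29 and 0.25 with replicate 1 of *eat-2*, *nhr-62* and N2. Whether libraries with the same number share a batch was not settled. A replicate block changed no call of the 6 genes (*daf-18* 0.36, adjusted p = 0.018, in the double mutant against *eat-2*), gave 8287 changed genes in *eat-2* against N2 and 2650 in the double mutant against *eat-2*, and made the 2 lower genes around the pathway in the double mutant against N2 into 4.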

Other observations

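For each of the 6 genes, the 3 tested genes most alike to it in log2 CPM over the 12 libraries were found by Pearson's r. They were *hum-2* (0.926), *kcc-1* (0.911) and *magi-1* (0.91) for *daf-2*, *ced-7* (0.983), *rrf-3* (0.982) and *cogc-1* (0.98) for *age-1*, and *trcs-1* (0.992), *rskn-1* (0.991) and *pigv-1* (0.986) for *daf-18*. For *pdk-1* they were *lsy-12* (0.943), *gldi-3* (0.942) and *mig-15* (0.923), for *akt-1* *cerk-1* (0.955), *rars-2* (0.906) and *ZK1127.6* (0.906), and for *akt-2* *F47B8.4* (0.957), *ceeh-2* (0.956) and *ltd-1* (0.954). None of the 6 genes was among another's 3, and the libraries share genotypes, so these are descriptions only.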
